A study of Mus with 438 samples.

Results

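Of 4590 regions bound by the thyroid hormone receptor beta in embryonic mouse retina, 3191 (69.5%, 95% Wilson interval 68.2 to 70.8) shared no base with either of 2 lists of regions whose accessibility was named as induced or suppressed in adult cones. These are called outside regions here, and they were chosen only by the absence of an overlap of 1 bp or more. Of the remaining bound regions, 1293 (28.2%) overlapped the induced list and 106 (2.31%) the suppressed list, and 0 overlapped both. The bound list came from ChAP-seq at embryonic day 18 (E18), in which a receptor that carries a tag biotinylated by the enzyme BirA is pulled down on streptavidin. Per the labels, 2 retina samples of ThrbHAB:BirA mice were set against 2 of mice with BirA alone. The ATAC lists came from cone nuclei of postnatal day 30, purified through the nuclear tag Sun1-gfp, from 2 control samples (Trb2Cre-het) and 2 knockout samples (Trb2Cre-KO). RNA was measured in single cones of Trb2Cre-het:Ai6 controls at P2, P8, P21, P60 and 2 months (2m), in Trb2Cre-KO:Ai6 cones at 2m and in tgNrl:gfp rods at 2m, all on the C57BL/6 strain. The cones were taken from the superior or the inferior zone of the retina.

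Several limits of these groups bear on what follows. All control cones carry the Cre driver on 1 allele, so no cone group is free of it; the rods and the ChAP retinas are labelled without it. The tissue of the ChAP samples is whole retina, in which cones are a small part, and the receptor was the tagged form. The lists hold no values per sample, so the region counts below are descriptions with no test, and their intervals cover counting error only. How induced and suppressed regions were told from the rest is not given in the sources used here. A region outside both lists was not listed as changed, which does not show that its accessibility was the same in control and knockout cones. Openness at outside regions was not measured here. Sequences of the regions are not shown, as no genome sequence was used.

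Thyroid hormone receptors are nuclear receptors that sit on DNA with or without their ligand, most often as a partner of a retinoid X receptor, and exchange corepressors for coactivators when hormone binds. The Thrb gene makes the beta receptors, of which the beta2 form is known from cones, where it is required for M opsin and holds back S opsin. In a chromatin study of such a receptor, binding in the embryo and a change of accessibility in the adult are separate readouts, taken here at E18 and at P30.

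The bound list ranks its regions by a value in column 5, given by the authors, and a smaller value is taken here as a better rank. What the value measures is not described, so the rank is not a measure of binding strength. Outside regions were spread over the whole range, but more thickly towards the last ranks. Among the 459 best-ranked bound regions 206 were outside regions (44.9%, 95% Wilson interval 40.4 to 49.5), and 252 (54.9%) overlapped the induced list. In the last 459 the outside regions numbered 368 (80.2%, 76.3 to 83.6) and the induced overlaps 77 (16.8%). The median of column 5 was 0.00252 for outside regions, 9.66e-05 for bound regions of the induced list and 0.00447 for those of the suppressed list. At a limit of 0.001, 39.9% of outside regions, 64.7% of bound induced regions and 30.2% of bound suppressed regions would be kept. The best value of an outside region, 2.07e-28, was shared by 2 regions and stood at rank 7 of all bound regions.

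**Figure D1:**
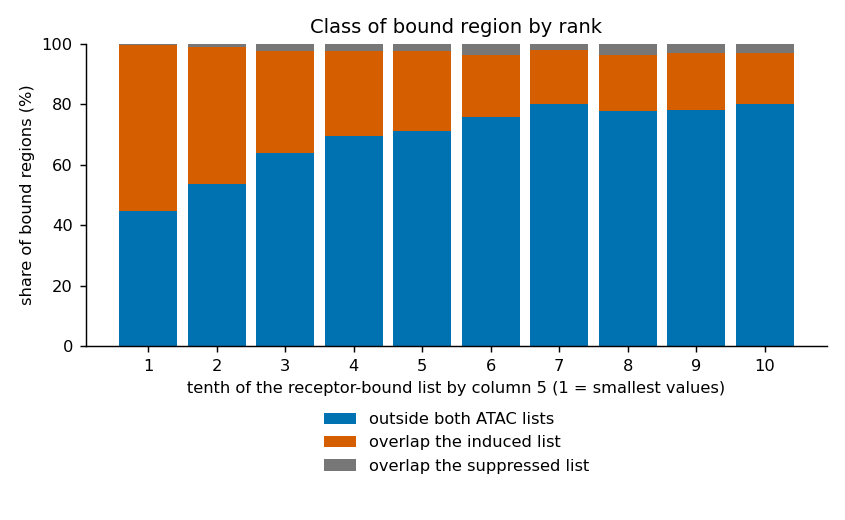
Share of bound regions (percent, y axis) in each class for 10 equal parts of the bound list ordered by column 5 (x axis, 1 holds the smallest values). Blue is outside both ATAC lists, orange overlaps the induced list and grey the suppressed list; the blue share runs from 44.9% in part 1 to 80.2% in part 10.

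Outside regions lay near gene ends more often than the bound regions that overlap the induced list. The gene annotation gives intervals without strand, so a gene end here is either end of a protein-coding gene, a start or a finish, and exons and introns could not be told apart. Of the 3191 outside regions, 434 (13.6%, 95% Wilson interval 12.5 to 14.8) had their centre within 1 kb of such an end. For bound induced regions the count was 48 of 1293 (3.71%, 2.81 to 4.89), and for bound suppressed regions 7 of 106 (6.6%, 3.24 to 13). ATAC regions with no bound region in them had 8.65% (induced list) and 6.53% (suppressed list). Stretches within 1 kb of a gene end make up 3.01% of the span between the first and last protein-coding gene of each chromosome, so the bound induced regions were close to that share. Within 500 bp the values were 9.24% for outside regions and 1.70% for bound induced regions.

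The gap was present in each part of the ranking. With the bound list split into 3 equal parts by rank, 11.8%, 12.7% and 15.7% of outside regions lay within 1 kb of a gene end, from the best-ranked to the last part. The same shares for bound induced regions were 2.29%, 4.66% and 5.86%. Farther out the classes came together. The median distance to a gene end was 16.5 kb for outside regions and 18.4 kb for bound induced regions, and 85.7% and 85.3% lay within 100 kb. Bound suppressed regions were farther away, with a median of 47.8 kb. Most outside regions, 1998 (62.6%), lay inside a protein-coding gene, as did 60.2% of bound induced regions, where protein-coding genes fill 39.6% of the span. A smaller number, 424 (13.3%), lay more than 50 kb from any protein-coding gene.

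**Figure D2:**
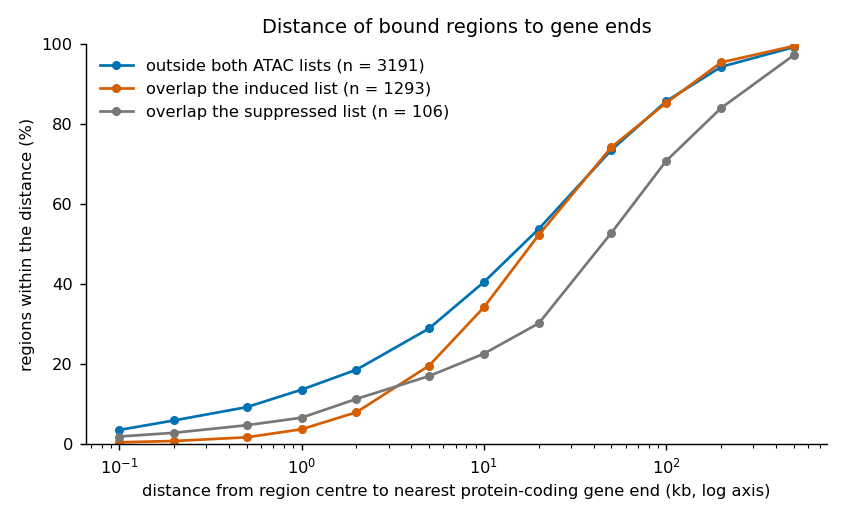
Cumulative share of bound regions (percent, y axis) whose centre lies within a given distance of the nearest protein-coding gene end (kb, log x axis), for the 3 classes of bound region. The curve of the outside regions is above that of the induced overlaps from 0.1 kb to 10 kb (13.6% against 3.71% at 1 kb), and both are near 85% at 100 kb.

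Few outside regions were near misses of the rule. The median gap to the nearest ATAC region of either list was 63.7 kb, with quartiles of 20.2 and 153 kb. Only 55 (1.72%) lay within 1 kb of one, and 14.5% within 10 kb. The closest lay 47 bp (Aff1), 107 bp (Zp1) and 111 bp (Hadha) from an ATAC region, where the named gene is the nearest. Just over the line, the smallest overlaps that removed a region were 29 bp (Grhl3), 43 bp (Maml3) and 54 bp (Wnt9a). Outside regions were also scattered with respect to each other, as 13.4% had another within 10 kb and the median spacing was 235 kb. By chromosome, their share of bound regions ran from 64.7% on chromosome 17 to 83.0% on the X chromosome. The X chromosome held few of them for its genes, 44 in all or 4.55 per 100 protein-coding genes, where chromosome 12 had 21.2.

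The 10 best-ranked outside regions lay near genes of varied kinds, and 2 of these genes serve phototransduction in rods. The region at rank 3 (chromosome 5, 108431072 to 108431371, GRCm38) lay inside Pde6b, a catalytic subunit of the rod phosphodiesterase, 522 bp from its end. Pde6b also held a bound region of the induced list, at rank 2 of all bound regions (108422195 to 108422494). At rank 7, a region of chromosome 8 (13404785 to 13405084) straddled an end of Grk1, the kinase that shuts off activated opsins, with its centre 147 bp beyond the gene. A pair of regions shared rank 1, one inside Ubtd1 and the other 31.6 kb from Ccnq, a cyclin. Rank 4 lay 3.83 kb from Adrb1, a beta-adrenergic receptor, and 0.462 kb from a region of the suppressed list. Vrk3, Gas6, Shld1, Iqsec1 and Cand1 were the genes nearest to the others, from inside the gene to 133 kb away. Of the 100 best-ranked outside regions, 59 lay inside a protein-coding gene, 17 within 1 kb of a gene end and 20 more than 50 kb from any gene. An induced ATAC region lay within 10 kb of 22 of them, and a suppressed one within 10 kb of 8.

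Counted by gene, 2414 of 21887 protein-coding genes (11%) had an outside region within 10 kb, and these are called near genes below. A single outside region was found at 1982 of them, and 118 had 3 or more. Most near genes, 2086 (86.4%), had no bound region of the induced or the suppressed list within 10 kb. A bound induced region was also found at 303 (12.6%). Near genes were long, with a median of 37.5 kb against 17.2 kb for all protein-coding genes, and with genes split into 4 equal parts by length the near share ran from 4.42% in the shortest part to 20.2% in the longest. Gse1, a coiled-coil protein found with corepressor complexes, held 10 outside regions in its 353 kb, next to 2 bound induced regions within 10 kb. Casz1, a zinc finger factor that acts in retinal cell fate, held 8 in 151 kb and had 0 bound induced regions within 10 kb. The cadherin gene Cdh4 and Cuedc1 held 6 each, with 2 and 1 bound induced regions within 10 kb.

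Genes of cone phototransduction were near outside regions most often among 13 lists of genes. Of 20 such genes 13 (65.0%) were near genes, and 8 had an outside region within 1 kb of an end, where the share over all protein-coding genes is 2.2%. The transducin subunits, which carry the signal from the opsins, were each covered. Gnat2 had 3 outside regions, the closest 293 bp from its end. Gnb3 had 1 at 104 bp from its end, and Gngt2 had 2. The cone phosphodiesterase gene Pde6c had 2, at 726 bp beyond an end and 1.47 kb inside, and the channel subunit Cnga3 had 1 at 701 bp. Among genes that end the response, Grk1 had 2, the cone arrestin Arr3 had 1 at 7.45 kb, and the anchor Rgs9bp had 2. The guanylyl cyclase activators Guca1a and Guca1b are neighbours and shared 1 region, at rank 90 among outside regions, which lay 0.857 kb from a region of the induced list. Rcvrn, Slc24a2 and Gnb5 made up the list. The opsin genes were not among them. Opn1sw had a bound region of the suppressed list 126 bp beyond its end, at rank 56 of all bound regions, and Opn1mw had no bound region within 10 kb.

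Genes of the rod pathway followed, with 9 of 16 near (56.2%). Besides Pde6b these were Pde6g, the channel subunit Cngb1, the arrestin Sag, the exchanger Slc24a1, Reep6, the repressor Samd7, and the rod factors Nrl and Nr2e3. Samd7 had 2 outside regions, with centres 2.13 kb inside and 58 bp beyond an end. Nrl also had 2 bound regions of the suppressed list.

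Among photoreceptor transcription factors 12 of 28 (42.9%) were near. The homeodomain factor Crx had 3 outside regions, the best 60 bp beyond an end, and Lhx4 had 1 at 49 bp inside its end. Casz1, Samd11 and Mef2d ranked best on this list, with ranks 23, 132 and 288 among outside regions. Prdm1, Rorb, Neurod1, Sall3, Pias3, Rax and Rxrg were the others. A bound induced region also lay within 10 kb of 4 of the 28 genes (14.3%), Rorb among them. Over all protein-coding genes that share was 4.65%.

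In the thyroid hormone pathway 9 of 27 genes (33.3%) were near. The targets came first by rank. Hr, a corepressor that is itself a hormone target, had 2 outside regions 2.09 and 4.28 kb beyond an end, the first at rank 34. Dbp, a clock output factor, held 1 at rank 55. Klf9, a hormone-responsive zinc finger factor, had 2 on one side at 4.53 and 6.18 kb, at ranks 123 and 85. Of the receptors, Thrb itself held 3, at ranks 596, 1628 and 1827, and also a bound induced region at rank 18 of all bound regions. The partners Rxra and Rxrg had 3 and 2. The coactivator Ncoa2 had 1, and the hormone transporter Slc16a10 had 2. Thra and the deiodinases Dio1, Dio2 and Dio3 were not near. Among other nuclear receptors 9 of 26 (34.6%) were near, led by the clock repressor Nr1d2 with a region at rank 56 whose centre was 334 bp inside its end.

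The lists of the synaptic terminal (13 of 24, 54.2%) and of the outer segment and cilium (10 of 23, 43.5%) were also above the share of all genes. A bound induced region lay within 10 kb of 6 of the 24 synaptic genes (25%) and of 0 of the 23 outer segment genes. For the synaptic list a share above that of all genes (4.65%) was thus not particular to outside regions. The ribbon gene Ctbp2 had 3 outside regions and a bound induced region, the complexins Cplx3 and Cplx4 had 1 and 2, and the glutamate transporter Slc17a7 had 1 at 879 bp. Prph2, which shapes the rim of outer segment discs, held 3, and Fscn2, Rp1 and Abca4 held 1 each. Dorsal and ventral patterning genes were near in 4 of 17 cases (23.5%), Vax2, Tbx2, Ephb2 and Cyp26c1.

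Markers of the other retinal cells were near about as often as any gene. The counts were 2 of 15 for progenitors (13.3%), 2 of 12 for ganglion cells (16.7%), 1 of 8 each for Müller glia (Dkk3) and bipolar cells (Trpm1), both 12.5%, and 1 of 13 for amacrine and horizontal cells (7.69%). Gene length moved with this count and was not the same across lists, and its part in the shares was not tested. Within the part of genes from 5.67 to 17.2 kb long, 13 of 16 genes of the cone phototransduction, rod and outer segment lists were near (81.2%), against 9.19% of all genes in that part. The other parts had smaller list shares. In the shortest part the values were 1 of 4 (25%) and 4.42%, and from 17.2 to 44.3 kb they were 7 of 16 (43.8%) and 10.3%. In the longest part the values were 11 of 22 (50%) and 20.2%.

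**Figure D3:**
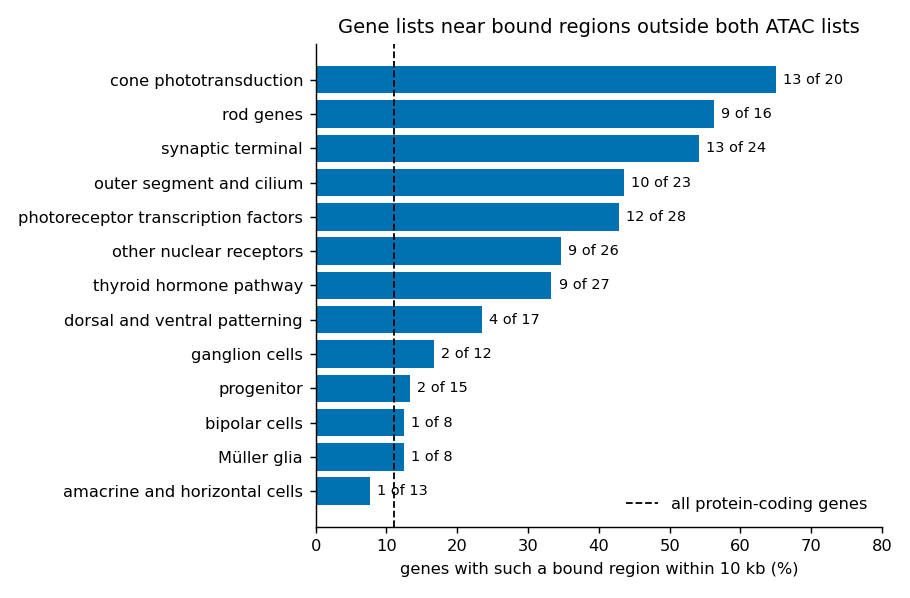
Share of the annotated genes of each list (percent, x axis) with an outside region within 10 kb, for 13 lists of genes (y axis), with the counts beside the bars. The dashed line marks all protein-coding genes (11%); cone phototransduction stands at 65.0% and amacrine and horizontal cell markers at 7.69%.

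RNA was then used to ask what near genes do in cones. The table holds 10390 genes in 430 single-cell libraries with 8.98e+05 to 3.26e+07 reads each, and the 2m collections were sequenced deeper than the others (medians per group of 1.09e+07 to 1.83e+07 against 1.74e+06 to 3.25e+06 reads). The labels name no animals, so a group of cells gives 1 value, its mean in CPM (read counts scaled to library size), and differences between single groups have no replicate check. A pair of libraries of P60 superior cones was alike (Pearson r 0.996 across genes, where the next pair had 0.467) and was counted as 1 cell. Cone markers summed to 9883 CPM or more in each cone group and 99.3 CPM in rods, and the 5 measured rod markers of 6 summed to 130 to 5289 CPM in cone groups and 108433 CPM in rods. Near genes were in the table more often than all genes, 1630 of 2414 protein-coding near genes (67.5%) against 44.6% of all, as were genes near bound induced regions (66.4%). In the RNA counts and medians below, near genes and the genes set beside them also include genes that do not code for protein. The measured near genes number 1684 in this sense, of which 1630 are protein-coding. The median level over near genes was above that over all placed genes in each of the 12 cone groups. Examples are 53.4 against 37.6 CPM in P8 superior cones and 35.7 against 31.8 CPM in 2m control superior cones. In rods it was 15.3 against 15.7 CPM.

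In knockout cones few near genes met a rule of size. A gene met it, which is a description and not a test, where its mean was at least 2-fold apart in the same direction in both zones and against both adult control collections. Of 1684 near genes measured, 2 were higher (0.119%) and 8 lower (0.475%). Over all 10143 placed genes the rule took 16 higher (0.158%) and 40 lower (0.394%), so near genes met it about as often as any gene under this rule with both collections; single collections gave other shares, below. Genes near a bound induced region met it in 4 (0.579%) and 15 (2.17%) of 691 cases. The median log2 ratio of knockout over 2m controls in superior cones was 0.04 over near genes, -0.01 over all genes and -0.27 over genes near bound induced regions. In inferior cones it was 0.18, 0.10 and 0.03. Against P60 controls the medians were -0.11, -0.05 and -0.42 for superior cones, then -0.05, 0.04 and -0.19 for inferior ones. Both sets of ratios share the knockout cells. Of 364 near genes with an outside region within 1 kb of an end, 1 was lower and 0 were higher.

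**Figure D4:**
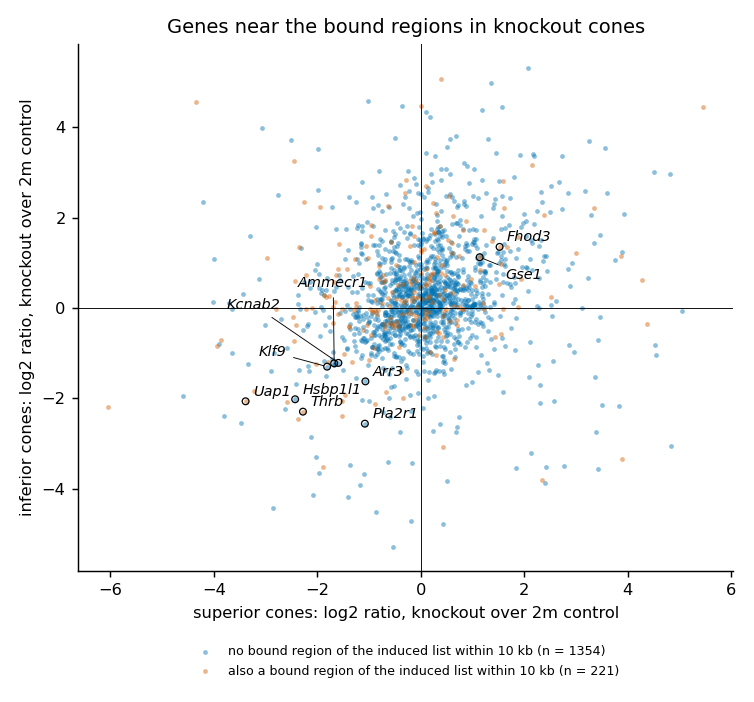
Log2 ratio of mean CPM + 1, 2m knockout over 2m control cones, in superior (x axis) and inferior cones (y axis), for 1575 near genes reaching a mean of 10 CPM in some of the 4 groups. Orange points also have a bound induced region within 10 kb; ringed genes met the size rule, 2 in the upper right and 8 in the lower left, within a cloud centred close to 0.

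The targeted gene, Thrb, was among the lower genes. Superior and inferior controls had means of 213 and 170 CPM (2m) and of 358 and 192 CPM (P60), and knockout cones 43.2 and 33.9 CPM. In what follows, values given as pairs are superior then inferior. Klf9 was lower too. Control means of 61.1 and 37.7 CPM (2m) and 122 and 114 CPM (P60) stood beside 16.7 and 14.8 CPM for the knockout, with log2 ratios between -1.30 and -2.87. Single cells overlapped widely, since Klf9 was over 1 CPM in 27 of 53 and 14 of 50 control cells of 2m and in 4 of 50 and 6 of 48 knockout cells. These genes were the only 2 of 18 measured thyroid hormone pathway genes that met the rule, both lower.

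Uap1, an enzyme of amino sugar metabolism, had the lowest ratio of the near genes that met the rule. Controls had 581 and 525 CPM (2m) and 544 and 400 CPM (P60), the knockout 54.7 and 125 CPM, with medians over cells of 555 and 453 CPM (2m controls) and 0.0904 and 0.302 CPM (knockout). A bound induced region also lay within 10 kb of Uap1, as it did for Thrb. The other 6 lower genes had none, and they were Klf9, Hsbp1l1, the potassium channel subunit Kcnab2, the phospholipase receptor Pla2r1, Ammecr1 and Arr3. Arr3 was over 1 CPM in every cone of the 2m controls and the knockout. Controls had means of 7466 and 5992 CPM (2m) and of 7406 and 5717 CPM (P60). In the knockout they were 3559 and 1946 CPM. Arr3 had a single outside region, at rank 3033 of 3191, so near genes that met the rule included ones beside late-ranked regions. Hsbp1l1, with a region at rank 113, had 42.9 and 51.5 CPM (2m controls) beside 7.17 and 12 CPM in the knockout.

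The 2 higher genes were Gse1 and Fhod3, a formin that builds actin filaments, and both also had bound induced regions within 10 kb. Gse1, the gene with the most outside regions, had control means of 36.7 and 33.7 CPM (2m) and 35.4 and 28.5 CPM (P60) and knockout means of 82.0 and 74.8 CPM. The mean and the median differed in direction for superior cones, whose median over cells was 4.6 CPM in 2m controls and 1.60 CPM in the knockout. When log values were averaged over cells, neither Gse1 nor Fhod3 met the rule, while 7 of the 8 lower genes did (not Ammecr1) and the near genes numbered 3 higher (0.178%, all genes 0.138%) and 22 lower (1.31%, all genes 1.01%). The counts rested on having both control collections. Against 2m controls alone 27 near genes were higher (1.60%, all genes 0.976%) and 19 lower (1.13%, all genes 1.01%). Against P60 controls alone 21 were higher (1.25%, all genes 1.86%) and 52 lower (3.09%, all genes 1.86%). With no filter on low values 25 were higher (1.48%, all genes 1.10%) and 24 lower (1.43%, all genes 1.36%). Among the single collections the near share was above that of all genes in both directions against 2m and in the lower direction against P60. Of markers of other cells, the 2 measured bipolar markers of 5 summed to 316 to 376 CPM in the knockout. Adult controls were lower, at 32.3 to 210 CPM. The 5 Müller glia markers summed to 170 to 249 CPM in the knockout, within the 89.7 to 368 CPM of adult controls. The measured rod markers summed to 1565 to 1656 CPM in the knockout, within the 848 to 5090 CPM of adult controls. The part of any of these markers in the knockout counts was not tested.

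Most genes with the best-ranked regions were not among those that met the rule. Grk1 had 271 and 513 CPM (2m) and 382 and 400 CPM (P60) in controls, and 304 and 340 CPM in the knockout. Dbp had 153 and 151 CPM (2m controls) beside 110 and 123 CPM (knockout). Hr was at 57.0 and 38.7 CPM against 40.4 and 41.7 CPM. Gas6, a ligand of TAM receptor kinases, was lower in each comparison but by under 2-fold in inferior cones, with 373 and 255 CPM (2m controls) beside 95.3 and 167 CPM (knockout). Of the 13 measured near genes of cone phototransduction 1 met the rule (Arr3), and of the near genes of the rod, transcription factor, synaptic and outer segment lists 0 did. Samd7 and Nr2e3 of the rod list were lower by over 2-fold in both zones and against both control collections. Each was under the floor of 10 CPM in a control group, at 2.87 CPM (Samd7, 2m inferior) and 5.38 CPM (Nr2e3, 2m superior). The median log2 ratio over the 8 measured near genes of the rod list was 0.31.

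Between ages more near genes met such a rule. Between P2 and adult control cones, 4-fold apart in both zones and against both P60 and 2m, 21 near genes were higher at P2 (1.25%) and 47 lower (2.79%). The rule took 155 (1.53%) and 129 (1.27%) of all placed genes. Near genes were thus above the share of all genes in the lower direction. In the higher direction they were below it by this rule, but not with no filter on low values (2.85%, all genes 2.65%) or with averaged logs (2.85%, all genes 2.79%). For genes near bound induced regions the shares were 2.17% and 2.75%. The median log2 ratio over near genes, averaged over the zones and both adult collections, was 0.42, beside 0.45 over all genes, so the typical near gene did not share the direction of these 47.

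The lower group held many genes of the mature photoreceptor. Of 13 measured near genes of cone phototransduction 6 were lower at P2 (Arr3, Gnat2, Grk1, Guca1a, Guca1b and Pde6c) and 0 higher, with a median log2 ratio of -2.72. Over all 19 measured genes of this list, near or not, 8 were lower and 0 higher, so the near genes were not set apart from their list. Gnat2 means in superior cones were 1455, 3485, 7295 and 8625 CPM at P2, P8, P21 and 2m, and in inferior cones 1192, 3260, 7628 and 8846 CPM. For Arr3 the superior means were 45, 2812 and 8500 CPM at P2, P8 and P21, and the inferior ones 74.5, 1584 and 5846 CPM. Every P8 cone was over 1 CPM of Arr3, and at P2 10 of 26 superior and 12 of 30 inferior cones were. Among outer segment genes Prph2, Impg1 and Abca4 were lower at P2. Impg1, a protein of the matrix around photoreceptors, was at 0 in each of the 26 superior and 30 inferior P2 cells and at 431 and 279 CPM in 2m controls. Its outside region lay 171 bp inside an end of the gene. The synaptic genes Cplx4 and Slc17a7, and Sag of the rod list, were lower as well. Over all measured genes, near or not, 4 of 22 outer segment, 3 of 22 synaptic and 3 of 15 rod genes were lower.

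The hormone target Dbp was lower at P2 (11.6 and 8.43 CPM) than in adult controls (153 and 151 CPM at 2m, 195 and 315 CPM at P60). It was the only thyroid hormone pathway gene of the 18 measured that met this rule. Other lower genes were the calcium channel subunit Cacnb2, BE949265 and the dopamine receptor Drd4. Drd4 was at 0 in all P2 cells and at 70.0 and 78.6 CPM in 2m controls.

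The 5 measured rod markers of 6 summed to 130 to 222 CPM at P2 and to 848 to 5090 CPM in adult controls. Rods held 697 CPM of Impg1, 5778 CPM of Guca1b and 271 CPM of Drd4, but 0.365 CPM of Arr3 and 0.0152 CPM of BE949265. The part of the rod markers in the lower group was not tested.

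Among the 21 genes higher at P2, the ephrin receptor Epha8 had superior means of 762, 107, 0.0921, 0.0685 and 0.0181 CPM from P2 to 2m, and inferior ones of 974, 162, 176, 62.8 and 6.77 CPM. The cadherin Cdh13 was at 262 and 205 CPM at P2 and 6.84 and 5.68 CPM in 2m controls. The homeodomain factor Lhx2, a progenitor gene, was at 74.0 and 106 CPM at P2 and 1.47 and 2.24 CPM in 2m controls. Serinc5, the potassium channel Kcnd3 and Tmem132e completed the 6 with the greatest ratios. Prdm1, Ephb2 and Dkk3 were the list genes beside Lhx2. Müller glia markers summed to 971 to 1118 CPM at P2 and 89.7 to 368 CPM in adult controls, and the 1 measured progenitor marker of 5 to 17.6 to 31.4 CPM and 0 to 6.40 CPM. Bipolar markers (2 of 5 measured) summed to 460 to 600 CPM at P2 and 32.3 to 210 CPM in adult controls, and the 1 measured amacrine and horizontal marker of 5 to 6.84 to 16.3 CPM and 0 to 0.719 CPM. Of the ganglion cell markers 0 of 5 were measured. Their part in the higher group was not tested. With log values averaged over cells, 48 near genes were higher (2.85%) and 64 lower (3.80%, all genes 1.57%) at P2, and 13 of the 21 and 41 of the 47 were among them. With no filter on low values 59 near genes were lower (3.5%, all genes 2.05%). Against P60 controls alone 38 were higher (2.26%, all genes 2.7%) and 65 lower (3.86%, all genes 1.84%).

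**Figure D5:**
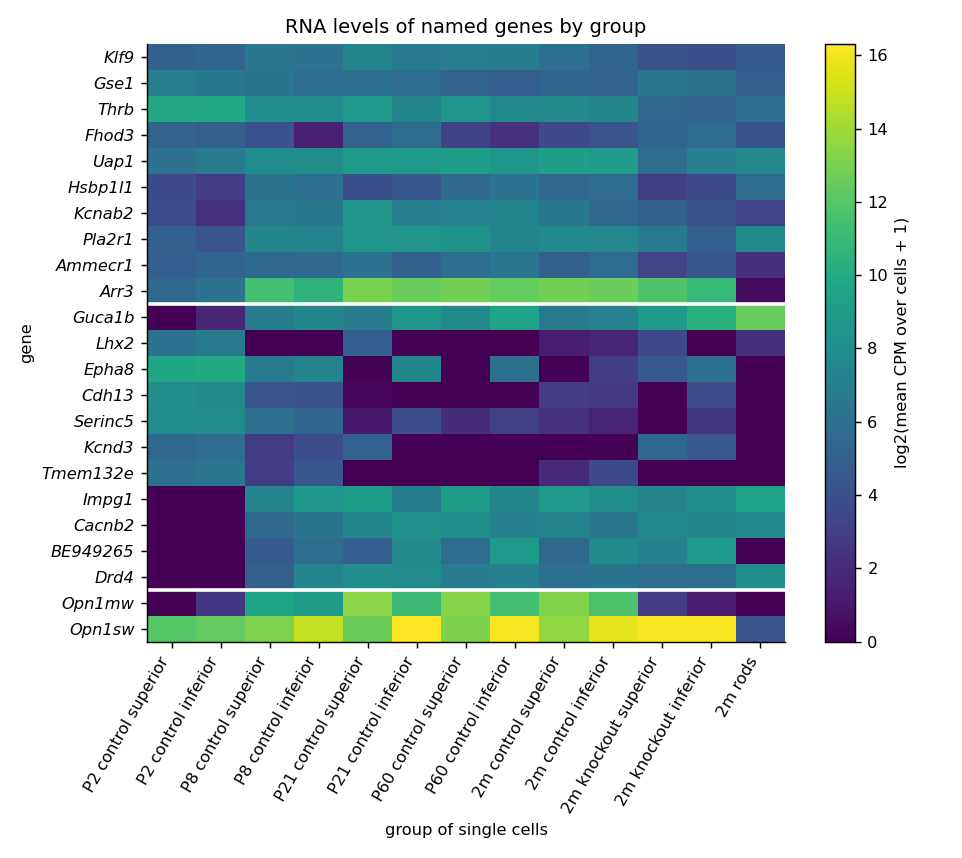
RNA level, log2 of mean CPM + 1 (colour), of named genes (y axis) in each group of single cells (x axis). The upper block holds the near genes that met the knockout size rule, the middle block near genes with the greatest P2 ratios, and the lower block the opsin genes; Uap1, Klf9 and Thrb are darker in both knockout columns than in the P60 and 2m control columns, and Impg1 and Drd4 are at 0 in both P2 columns.

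The zone of the retina was the comparison with a test, since 5 control collections gave a superior and an inferior value each. With limma and the collection as a block, 0 of 1638 near genes passed an adjusted p of 0.05, as did 0 of all 10136 genes tested (0%). At an unadjusted p below 0.05 there were 166 near genes (10.1%) and 710 genes in all (7%). The opsin genes, which are not near genes, did not pass either. Opn1sw was lower in superior cones in 5 of 5 collections (difference -2.15, SE 0.39, limma adjusted p = 0.476). Opn1mw was higher there in 4 of 5 (0.74, SE 0.60, limma adjusted p = 0.833). A count of 0 thus does not show that the zones were alike. The smallest adjusted p was 0.275 with limma, for Vax2, a near gene and a homeodomain factor of the ventral retina. Vax2 was at 35.5, 174, 35.2, 43 and 10.3 CPM in inferior cones from P2 to 2m and at or under 0.0581 CPM in superior cones of each age, so the group means of the zones did not overlap. Single cells did, since inferior medians were 0 CPM at P2, P21, P60 and 2m, and 8 of 30, 16 of 24, 5 of 24, 6 of 21 and 8 of 50 inferior cells were over 1 CPM from P2 to 2m. Its superior minus inferior difference of -5.33 on the log2(CPM + 1) scale (SE 0.67) depends on the added 1. In the knockout, superior and inferior cones had 0.000940 and 63.9 CPM. Vax2 had 2 outside regions, 7.58 kb beyond an end and 8.57 kb inside.

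Samd7 went the other way. Superior cones had 280, 189, 332, 390 and 169 CPM from P2 to 2m and inferior cones 49.3, 96.9, 15.6, 14 and 2.87 CPM, a difference of 3.59 (SE 0.59, limma adjusted p = 0.395) with superior higher in 5 of 5 collections. In the knockout Samd7 was at 6.09 and 0.00772 CPM. Guca1b was lower in superior cones in 5 of 5 collections (difference -1.25, SE 0.27, limma adjusted p = 0.579), and Epha8 likewise (-3.42, SE 0.99, limma adjusted p = 0.656). BE949265 was also lower in 5 of 5 (-1.85, SE 0.48, limma adjusted p = 0.628). Thrb was higher in superior cones in 5 of 5 (0.54, SE 0.20, limma adjusted p = 0.702).

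These calls depended on the tool and on how cells were averaged. When log values were averaged over cells, limma called 8 near genes (0.488%) and 16 genes in all (0.158%). The 8 were Vax2, Vax2os, Syndig1l, Ccdc136, Samd7, Smug1, Desi1 and Kpna2, named here because they were called. DESeq2 on reads recovered from the CPM called 56 near genes (3.42%) and 237 genes in all (2.34%), and edgeR on the same reads called 0 near genes and 0 genes in all (0%), with 104 near genes (6.35%) and 417 genes in all (4.11%) at an unadjusted p below 0.05. By DESeq2, Vax2 (adjusted p = 2.10e-37), Samd7 (adjusted p = 5.70e-04), Epha8 (adjusted p = 1.11e-05) and BE949265 (adjusted p = 4.08e-10) passed, and Guca1b (adjusted p = 0.420) and Thrb (adjusted p = 0.294) did not. The median zone difference was 0.08 over near genes and 0.10 over all genes tested by limma.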

How the data were processed

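The members, the gene lists and the rules were chosen with earlier results of these data known, so no list gives independent support. Per the submitters' processing notes, bcl2fastq 2, STAR 2.7.3a and MACS2 2.2.7.1 were used with GRCm38/mm10; the pooling of samples for region calls is not given in the sources used here. The bound list was deposited with a value in column 5 that is not described (p, q or FDR is not stated), and the ATAC lists with positions only. All bound regions are 300 bp long. Starts count from 0 in the files and from 1 in the text.

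RNA values were deposited as CPM per gene and cell by the authors. Library sums were 80.0% to 93.0% of the full CPM scale, so the CPM were scaled before genes were left out. All values above 0 (100%) were whole multiples of 1 read within 0.1, and whole reads were recovered for edgeR 4.0.16 and DESeq2 1.42.0. Columns of no sample numbered 0.

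Overlap meant 1 bp or more. Genes came from RefSeq (GRCm38.p6), which held 10143 of the 10390 RNA genes. A gene was near where an outside region lay within 10 kb of its interval. Distances to a gene run from the region's centre to a gene end, and gaps to ATAC regions run between edges. A group's value was the mean CPM over its cells. Zone differences used limma 3.58.1 (R 4.3.3, trend, collection block) on log2(mean CPM + 1) for genes averaging 5 CPM or more, Benjamini-Hochberg adjusted. The fit was also run on values simulated from the fit itself with normal noise, which checks the code and not the calls. The size rules needed, in the higher group, at least 10 CPM and over 1 CPM in 25% of cells; log2 ratios add 1 CPM and understate changes of low genes. Wilson intervals are at 95%. Molecular identifiers are not named in the sources used here, so read counts are not taken as molecules.

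Named genes were the best-ranked 3 of each list, those nearest the 10 best outside regions, the 5 with the most outside regions, near genes of the knockout rule, 6 per direction of the P2 rule, and Thrb and the opsins; further list genes were named with their regions. Some genes that this rule takes are not reported here. The planned sequences were not printed, as no genome was used here. Alternatives covered overlap, nearness, rank, pseudocount, filter, averaging, collections and tool.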

Additional observations from a re-analysis of the deposited data

Results flagged for a closer look

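Casz1, the gene with 8 outside regions, was higher in superior than in inferior cones in each of the 5 control collections (0.33, 0.52, 1.30, 0.38 and 0.09 from P2 to 2m, superior minus inferior on the log2(mean CPM + 1) scale), and lower in superior cones of the knockout (-0.72). Cand1, nearest to the outside region at rank 10, was lower in superior cones in each of the 5 control collections, from -0.68 to -0.0034, and differed by 0.049 in the knockout. Both were picked out because the knockout had the opposite sign to every control collection. The knockout has a single superior and a single inferior group, so these differences were not tested.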

How the results depend on the processing

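Limits of 0.001 on column 5 left 1273 outside regions and 1048 near genes, with 12% of the regions within 1 kb of a gene end; the other readings of the overlap gave 3136 to 3206 regions. Counting genes within 50 kb gave 4894 near genes. Of 1638 near genes, those called between zones numbered 8 with averaged logs, 2 without the collection block (Vax2 and Smug1) and 56 with DESeq2. Of all 10136 genes tested, these settings called 16, 2 and 237. The count of near genes called was 0 when any of the 5 collections was left out. In the knockout, 2 higher and 8 lower near genes became 25 and 24 with no filter on low values, 3 and 22 with averaged logs, 27 and 19 against 2m controls only, and 21 and 52 against P60 controls only. In that order the near shares were 1.48% and 1.43%, 0.178% and 1.31%, 1.60% and 1.13%, and 1.25% and 3.09%. Over all genes they were 1.10% and 1.36%, 0.138% and 1.01%, 0.976% and 1.01%, and 1.86% and 1.86%. At P2, 21 higher near genes became 48 with no filter, 48 with averaged logs (both 2.85%, all genes 2.65% and 2.79%) and 38 against P60 only (2.26%, all genes 2.7%), while the 47 lower ones stayed within 1.5 times. No named gene that met a size rule changed its sign in that comparison. Counting the repeated library as 2 cells, an alternative chosen after seeing the data, moved no count by over 1.5 times, and the gene end share under each reading was also added later. No paired analysis was possible because the numbers in the labels only name single cells; the collection block of the zone test joins the zones of a collection, not numbered cells. Shallow libraries (from 8.98e+05 reads) limit the low genes most.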
